A study of Mus musculus with 6 samples.

Results

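Mir17hg, Usp2, Lmcd1, Zbtb32, Ydjc and Sapcd2 were 6 genes of a mouse macrophage line whose signal was far lower after treatment with mica fine particles (MFP) than before it. They were selected on their log2 signal differences at 12 h and 48 h on these same arrays, among 8149 named genes. Their differences are therefore given here as a description with no test. As a group they were named as outside the cell cycle, and that name was not tested. Their signal was 3.49-fold to 7.44-fold lower at 48 h than at 0 h, and it came down along separate courses: Mir17hg and Usp2 were already 3.71-fold and 2.89-fold lower at 12 h, whereas Lmcd1, Zbtb32, Ydjc and Sapcd2 came down mainly after 12 h.

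The cells were RAW 264.7, an established mouse line of leukemic monocyte macrophages, kept in RPMI medium with reduced serum. MFP, fine particles of the aluminosilicate mineral mica, were added at 100 µg/mL, and RNA was taken at 0 h, 12 h and 48 h for 6 Illumina Mouse WG-6 v2.0 arrays, 2 per time point. The 0 h arrays were read as the nontreated control, although the labels give the same particle dose for all 3 times. Untreated cells at 12 h and 48 h were not analysed here, so time in culture and MFP treatment cannot be told apart. Whether both arrays of a time were from different cultures is not given in the labels, and a p-value then rests on array-to-array spread that may be technical alone. RNA came from whole cultures, in which fewer cells of a type and less RNA per cell cannot be told apart.

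Mir17hg is the host gene of a polycistronic microRNA cluster whose primary transcript is cut by Drosha and Dicer, and mature microRNAs of the cluster lower the level of growth-inhibiting and pro-apoptotic transcripts. Usp2 is a deubiquitinase, a protease that takes ubiquitin off its substrates and so spares them from the proteasome, and its transcript follows the circadian clock in mouse tissues. Lmcd1 and Zbtb32 are transcriptional regulators that repress or modulate GATA factors, Sapcd2 acts at the cell cortex on the orientation of the mitotic spindle, and Ydjc resembles bacterial enzymes that remove acetyl groups from chitin fragments.

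The Mir17hg probe measured the host transcript and no mature microRNA. The guide strands of the cluster are shown because the gene is named as their host. In the RefSeq annotation, however, 5 of the 6 hairpins start upstream of the annotated Mir17hg start, 4 of them end upstream of it, and 1 lies inside the annotated transcript. All 6 lie on the plus strand of chromosome 14 in RefSeq of build GRCm38.p6, at chr14:115043684-115043706, chr14:115043867-115043889, chr14:115044048-115044070, chr14:115044183-115044205, chr14:115044358-115044380 and chr14:115044476-115044496 in the order below, with the seed (bases 2 to 8) in capitals.
mmu-miR-17-5p: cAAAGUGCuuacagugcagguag
mmu-miR-18a-5p: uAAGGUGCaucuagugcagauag
mmu-miR-19a-3p: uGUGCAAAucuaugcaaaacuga
mmu-miR-20a-5p: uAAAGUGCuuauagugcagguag
mmu-miR-19b-3p: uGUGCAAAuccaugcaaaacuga
mmu-miR-92a-3p: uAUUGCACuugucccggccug
The 6 microRNAs carry 4 seeds. miR-17-5p and miR-20a-5p share AAAGUGC, miR-19a-3p and miR-19b-3p share GUGCAAA, and miR-18a-5p and miR-92a-3p each have a seed of their own. The hairpins together span 836 bases.

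Of 45281 probes on the array, 14 were annotated to the 6 genes, and 8 of these had a detection p under 0.05 on all 6 arrays, as did 14091 probes (31.1%) in all. Each gene had at least 1 such probe, and the probe with the highest mean, its main probe, stood for it below. Between 16176 and 17155 probes were detected per array, and the median signal was 102 to 116. Values are given first as deposited signal and then as log2 signal after quantile normalization over the 6 arrays, with the standard error (SE) of the limma fit over 9984 features, a feature being a named gene or an unnamed probe. Over all features the median log2 difference was -0.02 at 12 h and 0.01 at 48 h against 0 h.

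**Figure D1:**
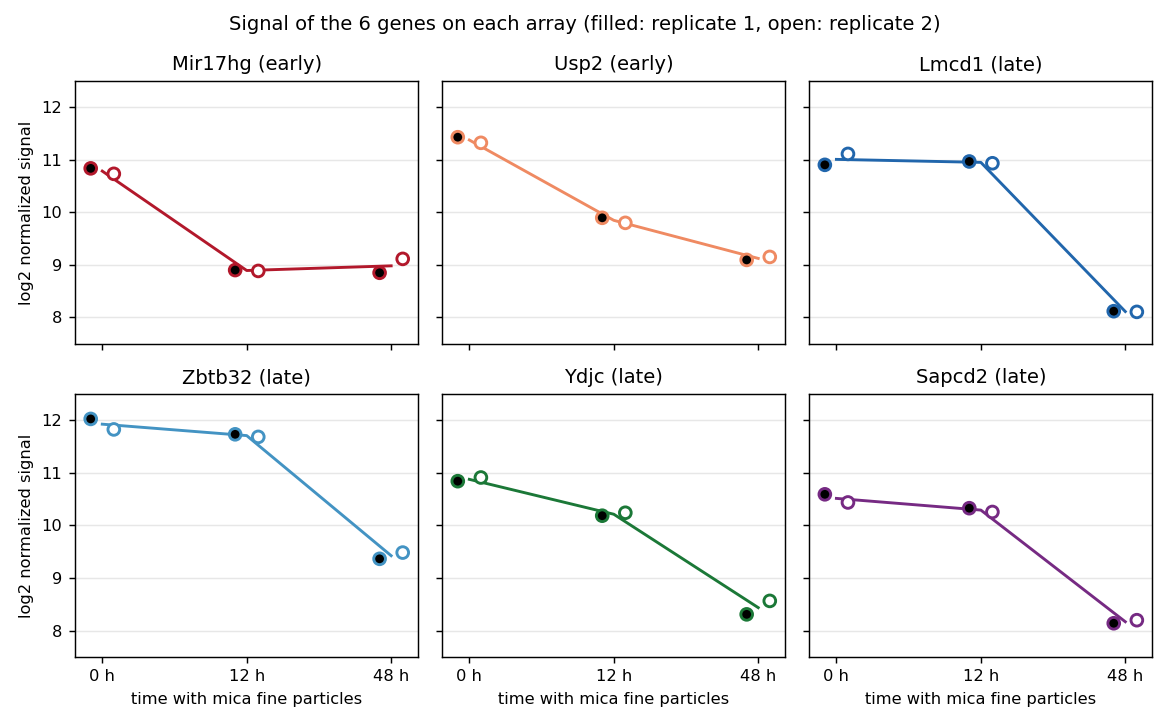
Log2 signal of the main probe of each gene (vertical axis) on each of the 6 arrays at 0 h, 12 h and 48 h (horizontal axis). Points are arrays and lines join the means of 2 arrays; Mir17hg and Usp2 were already low at 12 h, and the other 4 genes were lowest at 48 h.

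Mir17hg came down before 12 h and stayed there. Its signal was 2379 and 1410 on the 0 h arrays, 460 and 576 on the 12 h arrays, and 367 and 570 on the 48 h arrays. The log2 values were 10.84 and 10.73, then 8.90 and 8.89, then 8.85 and 9.12, so that both arrays at 12 h and both at 48 h lay below both at 0 h, while 12 h and 48 h overlapped. The log2 difference from 0 h was -1.89 at 12 h and -1.80 at 48 h (SE 0.108, n = 2 arrays per time), and 48 h differed from 12 h by 0.09. Only 1 of the 9984 features had a lower difference at 12 h, and at 48 h Mir17hg ranked 90 from the lowest. The 3 named genes most like it, by the distance between mean-centred log2 values over the 6 arrays, were Tfrc, the transferrin receptor that brings iron into cells (distance 0.19), Skil, a repressor of TGF-beta signalling (0.37), and Gpx1, a glutathione peroxidase (0.64). Tfrc was lower by a log2 difference of -1.98 at 12 h and -1.88 at 48 h, and Skil of -1.67 and -1.44.

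Usp2 was low at 12 h and lower still at 48 h. Its main probe read 3639 and 2120 on the 0 h arrays, 890 and 1126 on those of 12 h, and 427 and 588 on those of 48 h. On the log2 scale these were 11.43 and 11.32, 9.90 and 9.80, and 9.10 and 9.15, with no overlap between any of the 3 times. The log2 difference from 0 h was -1.53 at 12 h and -2.25 at 48 h (SE 0.0906), so 67.8% of the 48 h difference was present at 12 h, and the step from 12 h to 48 h was -0.72. Of its 3 further probes, ILMN_1223302 and ILMN_2482390 were detected on no array. ILMN_2466316 was detected at 0 h alone, at signals of 213 and 139, and against the lowest detected signal of each later array it was at least 1.29-fold lower at 12 h and 1.3-fold lower at 48 h. ILMN_1223302 was annotated to another Usp2 transcript than the other 3 probes, so the values given are those of the transcript the main probe reads. The named genes nearest to Usp2 were Gpx1 (distance 0.60), Ncl, which encodes the nucleolar protein nucleolin (0.65), and Selenoh, a nuclear selenoprotein (0.72).

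Lmcd1, a LIM domain protein that in mouse heart acts with calcineurin, had the largest 48 h difference of the 6 genes and none beyond its error at 12 h. The arrays of 0 h gave signals of 2520 and 1807, those of 12 h 1832 and 2521, and those of 48 h 229 and 278. The log2 values at 0 h, 10.90 and 11.11, lay on either side of those at 12 h, 10.97 and 10.94, and both arrays at 48 h, at 8.12 and 8.11, were far below. The log2 difference was -0.06 at 12 h and -2.90 at 48 h (SE 0.0974). Between 12 h and 48 h it was -2.84, the lowest of all features, and against 0 h Lmcd1 ranked 2 from the lowest. A further probe, ILMN_1247343, detected on all 6 arrays, gave -0.08 and -2.89. ILMN_2628940 gave -0.22 at 12 h and was detected on 1 of the 2 arrays at 48 h, where its signals of 121 and 120 lay near the background. Zbtb32 (distance 0.65), Cdc20, an activator of the anaphase-promoting complex (0.65), and Sapcd2 (0.79) were nearest to it.

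Zbtb32, a BTB zinc finger repressor that restrains lymphocyte activation and in mouse plasma cells represses the MHC class II regulator Ciita, kept most of its signal until 12 h. It read 5490 and 2970 before treatment, 3095 and 4315 after 12 h, and 505 and 743 after 48 h. The log2 values of 12.03 and 11.83 at 0 h were close above the 11.73 and 11.69 at 12 h, and those at 48 h were 9.36 and 9.48. The log2 difference from 0 h was -0.22 at 12 h and -2.50 at 48 h (SE 0.101), so that 8.69% of the late difference was present at 12 h. The dimmer probe ILMN_2829268, at signals of 324 and 264 at 0 h, gave -0.20 at 12 h and was detected on 1 of the 2 arrays at 48 h, where its signals of 112 and 130 lay near the background. Sapcd2 was its nearest gene (distance 0.19), followed by Cdc20 (0.35) and Lmnb1, which encodes lamin B1 of the nuclear lamina (0.36).

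Ydjc had the largest 12 h difference of the 4 late genes. The deposited signal was 2387 and 1588 before treatment, 1082 and 1552 after 12 h, and 259 and 384 after 48 h. The log2 values stepped down from 10.84 and 10.91 through 10.19 and 10.24 to 8.31 and 8.56, with no overlap between the 3 times. The log2 difference was -0.66 at 12 h and -2.44 at 48 h (SE 0.106), so that 27.2% of the late difference was present at 12 h. ILMN_1213274, detected on all 6 arrays at a lower signal, gave smaller differences of -0.38 and -1.41, and ILMN_2621791 was detected on no array. Its nearest genes were Hirip3, a histone-binding protein (distance 0.12), Ccne2, a cyclin of the G1 to S transition (0.19), and Mcm5, a subunit of the replicative helicase (0.26).

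Sapcd2 had a single probe on the array. That probe read 2012 and 1139 on the 0 h arrays, 1196 and 1574 on the 12 h arrays, and 232 and 298 on the 48 h arrays. The log2 values were 10.59 and 10.44, 10.33 and 10.26, and 8.14 and 8.20, the arrays at 12 h lying just below those at 0 h and the arrays at 48 h well apart. The log2 difference was -0.22 at 12 h and -2.35 at 48 h (SE 0.0936), with 9.47% of it present at 12 h. Zbtb32 (distance 0.19) and the mitotic kinases Aurka and Plk1 (both 0.25) were nearest to it.

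**Figure D2:**
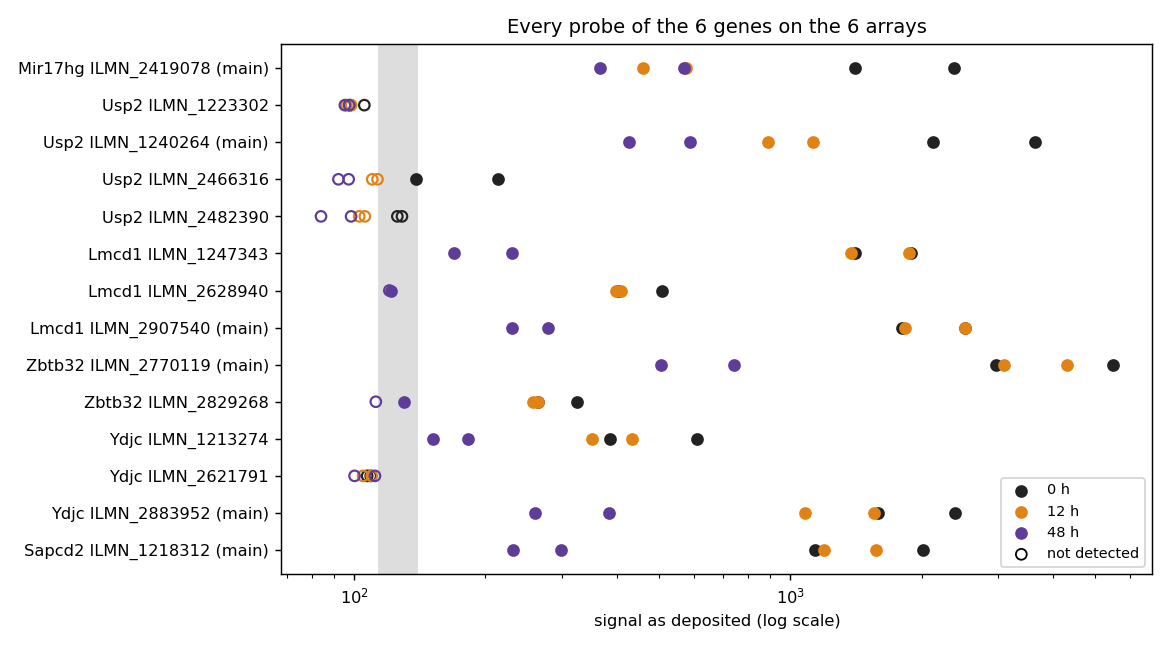
Deposited signal (horizontal axis, log scale) of each of the 14 probes annotated to the 6 genes (rows) on the 6 arrays, coloured by time. Open circles mark a detection p of 0.05 or more and the grey band the range over the arrays (114 to 139) of the lowest signal of a detected probe; every main probe stayed to the right of it at 48 h.

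The main probes thus stayed measurable at 48 h, but some came near the background. Their 48 h signal was 2.43 to 2.81 times the median undetected signal of the array for Lmcd1, 2.46 to 3.01 times for Sapcd2 and 2.75 to 3.88 times for Ydjc, against 5.36 to 7.51 times for Zbtb32. Signals were deposited without background subtraction, which makes a fold change near the background smaller than that of the transcript. Normexp background correction moved the 48 h log2 difference of Lmcd1 to -3.38, of Ydjc to -2.79 and of Sapcd2 to -2.78.

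Arrays that did not overlap between times were common over all features. At 12 h, 5 of the 6 genes, all but Lmcd1, had both arrays below both 0 h arrays, as did 31% of all features. At 48 h all 6 did, beside 37.4% of features, and between 12 h and 48 h 5 did, all but Mir17hg, beside 34.2%. Since these contrasts chose the genes, nothing is read from the counts. Calls that also asked for a 2-fold change were rarer (adjusted p under 0.05 by limma), with 0.17% of features lower and 1.17% higher at 12 h, 5.07% lower and 5.35% higher at 48 h, and 3.26% lower and 2.4% higher between 12 h and 48 h. The deposited normalized values showed that the arrays formed 2 sets of 3, each with 1 array per time point. Within the sets the 48 h log2 difference was -1.72 and -1.88 for Mir17hg, -2.28 and -2.23 for Usp2, -2.80 and -2.99 for Lmcd1, -2.54 and -2.46 for Zbtb32, -2.28 and -2.60 for Ydjc, and -2.40 and -2.30 for Sapcd2. At 12 h it was -1.95 and -1.83 for Mir17hg, -1.63 and -1.43 for Usp2 and -0.60 and -0.73 for Ydjc. For Zbtb32 it was -0.34 and -0.09, for Sapcd2 -0.34 and -0.11, and for Lmcd1 0.03 and -0.14, so the direction at 12 h for Lmcd1 differed between the sets.

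**Figure D3:**
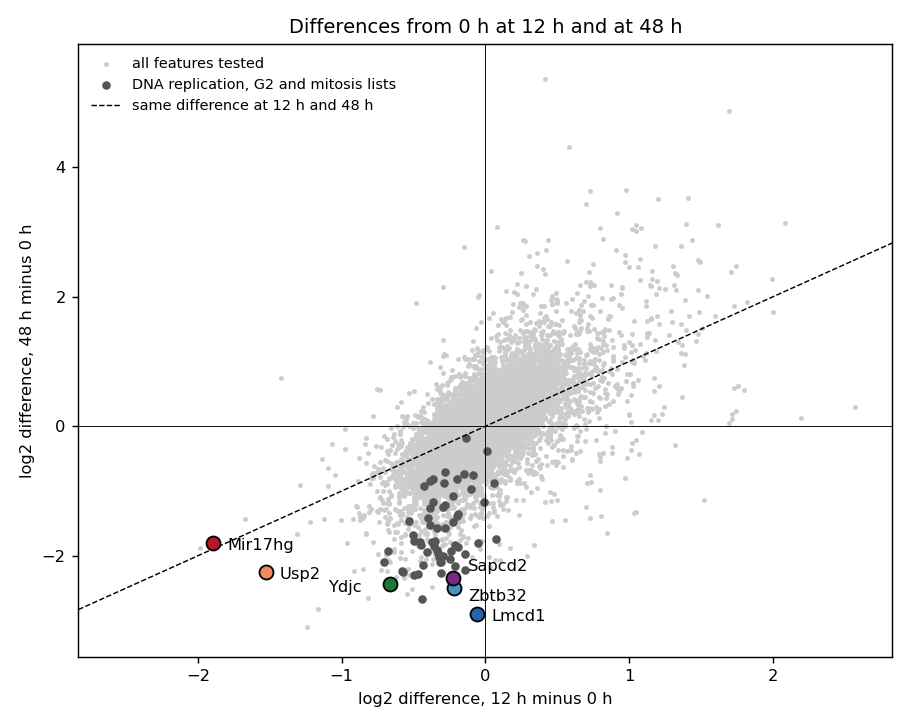
Log2 difference from 0 h at 12 h (horizontal axis) and at 48 h (vertical axis) for all 9984 features (grey), the genes of the DNA replication and the G2 and mitosis lists (dark) and the 6 genes (coloured). The dashed line marks equal differences at both times; Mir17hg lies near it, Usp2 somewhat below it, and the 4 late genes far below it among and beneath the cell cycle genes.

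The 6 genes were left out of the DNA replication list and of the G2 and mitosis list before use. Their absence from these lists is therefore no result. Of the 50 named genes nearest to each, those lists held 18 for Lmcd1, 18 for Zbtb32, 18 for Ydjc and 20 for Sapcd2, against 0 for Mir17hg and 2 for Usp2. The late genes were chosen for large late falls and many cell cycle genes are strong late fallers, so the choice itself sets this likeness and nothing is read from the counts. The share of a 48 h difference present at 12 h was 105% for Mir17hg, and the smallest distance within the 6 genes was the 0.19 between Zbtb32 and Sapcd2, the largest the 2.97 between Mir17hg and Lmcd1. Sapcd2, although named as outside the cell cycle, is known as a regulator of mitosis.

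The cell cycle lists moved as follows at an adjusted p under 0.05 by limma. At 12 h, 16 of 33 DNA replication genes and 7 of 25 G2 and mitosis genes fell, beside 8.85% of all features, with list medians of -0.36 and -0.25 against -0.02 over all features. The 12 h counts depended on the fit. With the set of arrays as a block 26 and 16 fell, beside 20.4% of features, and with the replicate number as a block 11 and 2 fell, beside 5.54%. At 48 h, 32 of the 33 and all 25 fell, beside 26.4% of features, with medians of -1.41 and -1.86. Between 12 h and 48 h, 32 and 25 fell, beside 20.2% of features that fell and 19.9% that rose, with medians of -1.01 and -1.68. The study itself named cell cycle and DNA replication genes from these arrays, so the lists are not independent of it.

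**Figure D4:**
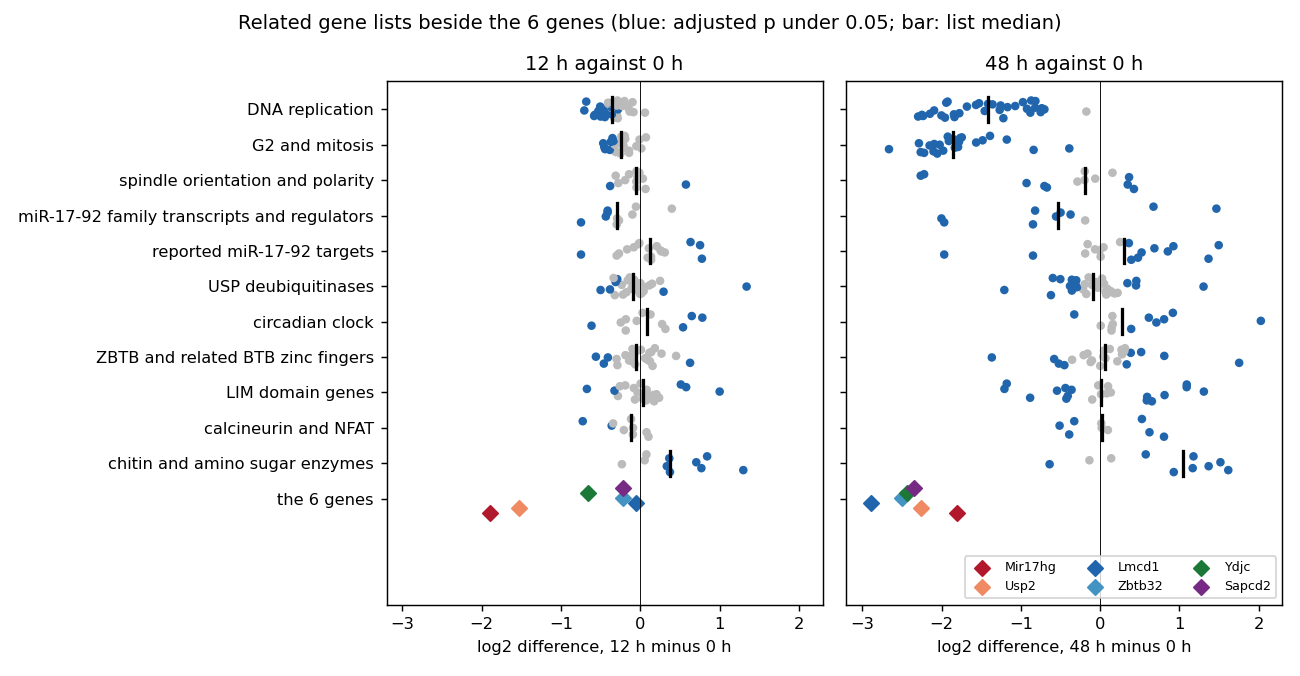
Log2 difference from 0 h at 12 h (left) and 48 h (right) for the tested genes of 11 related lists (rows), with the 6 genes as diamonds in the lowest row. Blue points passed an adjusted p under 0.05, grey points did not, and black bars are list medians. At 48 h the cell cycle lists have medians of -1.41 and -1.86, the other lists medians between -0.53 and 1.05, and the 6 genes lie from -2.90 to -1.80.

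Around Mir17hg, transcripts of its microRNA family, of their regulators and of the processing machinery had medians below 0. Of 10 tested, 4 fell at 12 h (median -0.29), beside 8.85% of all features. At 48 h 7 fell and 2 rose (median -0.53), beside 26.4% that fell and 26.3% that rose. Mcm7, a helicase subunit whose transcript carries a related microRNA cluster, had a log2 difference of -0.29 at 12 h that did not pass (adjusted p = 0.0756, or 0.00707 with the set block) and fell by 2.00 at 48 h. With that block 7 of the 10 fell at 12 h, beside 20.4% of features, and with the replicate block 3 did, beside 5.54%. E2f2 and E2f1 activate S phase transcription, and at 48 h E2f2 fell with a log2 difference of -1.97 and E2f1 with -0.85. Dicer1, Dgcr8 and Xpo5, which cut and export microRNA precursors, fell at both times, with log2 differences of -0.43, -0.41 and -0.41 at 12 h and -0.56, -0.50 and -0.82 at 48 h, whereas Drosha had a log2 difference of -0.10 at 12 h that did not pass (adjusted p = 0.519) and fell by 0.37 at 48 h. Ago2, which carries the mature strand, rose by 1.47 at 48 h, and Ago3 rose by 0.67. Both probes for Myc, a known activator of the cluster, and that for Mycn were detected on no array.

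Of 18 tested transcripts that have been reported as targets of the cluster, 3 rose and 1 fell at 12 h (median 0.12), beside 10.4% and 8.85% of all features. With the set block 6 rose and 3 fell, beside 19.6% and 20.4%. At 48 h 9 rose and 2 fell (median 0.31), beside 26.3% and 26.4%. E2f1, E2f2 and E2f3 were on this list and on that of the family and its regulators. E2f2 was the one that fell at 12 h, and E2f1 and E2f2 were those that fell at 48 h. Cdkn1a, an inhibitor of cyclin-dependent kinases, rose at both times, with log2 differences of 0.78 and 1.37, and Sqstm1, an autophagy receptor, did so with 0.75 and 1.5. At 48 h Sirpa, an inhibitory receptor of macrophages, rose by 0.92 and Stat3, a transcription factor of cytokine signalling, by 0.85, from log2 differences of 0.21 and 0.27 at 12 h that did not pass. The others that rose at 48 h were Bmpr2 (0.68), Rb1 (0.52), Tgfbr2 (0.48), the pro-apoptotic Bcl2l11 (0.39) and Cyld (0.36). At that time 7 did not pass, among them Hif1a (-0.01) and Smad2 (0.01). The median of all features was 0.01 at 48 h, and most of these transcripts answer to other regulators as well.

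Around Usp2, genes moved in both directions. Of 7 tested genes whose proteins have been reported as Usp2 substrates, 1 rose at 12 h, beside 10.4% of all features. At 48 h 2 rose and 1 fell, beside 26.3% and 26.4% of all features. Mdm2, the ubiquitin ligase of p53, rose by 1.31 at 48 h, and Aurka fell with a log2 difference of -2.26. Per1, a repressor of the circadian clock, rose by 0.54 at 12 h, and Ccnd1, cyclin D1, differed by 0.01 and 0.06 with no pass. Fasn, fatty acid synthase, was detected on at most 2 arrays and was not tested. Of 32 other genes with a Usp symbol, not all of them proteases, 4 fell and 2 rose at 12 h (median -0.09), beside 8.85% and 10.4% of all features. At 48 h 11 fell and 4 rose (median -0.10), beside 26.4% and 26.3%. With the set block 8 fell and 3 rose at 12 h, beside 20.4% and 19.6%. With the replicate block 1 fell and 1 rose, beside 5.54% and 7.32%. Usp18, which takes off the ubiquitin-like ISG15, rose by 1.34 and 1.30 at the 2 times, and Usp1, which acts in DNA repair, fell with log2 differences of -0.50 and -1.21. Of 12 circadian clock genes, 3 rose and 1 fell at 12 h, beside 10.4% and 8.85% of all features. With the set block 5 rose and 2 fell, beside 19.6% and 20.4%. At 48 h 6 rose and 1 fell (median 0.28), beside 26.3% and 26.4%. Dbp, a clock output factor, was up by 2.03 at 48 h, and the repressor Per2 was down at 12 h with a log2 difference of -0.61.

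The families of Lmcd1 and Zbtb32 moved in both directions. Of all features, 10.4% rose and 8.85% fell at 12 h, and 26.3% rose and 26.4% fell at 48 h. The 48 h counts of LIM domain genes lay above these shares and those of the BTB zinc finger list below them, which was not tested. Of 21 other LIM domain genes, 3 rose and 2 fell at 12 h, and 7 rose and 8 fell at 48 h (median 0.01). At 48 h Lims2 rose by 1.31, Pdlim7 fell with a log2 difference of -1.21 and Trip6 with -1.18, all members of focal adhesions or the actin cytoskeleton. Of 9 calcineurin and NFAT genes, 2 fell at 12 h, and 3 rose and 3 fell at 48 h, where Ppp3ca, the catalytic subunit of calcineurin, rose by 0.81. Its inhibitor Rcan1 fell with log2 differences of -0.73 at 12 h and -0.33 at 48 h. Of the 24 other genes on the BTB zinc finger list, 1 rose and 3 fell at 12 h, and 5 rose and 4 fell at 48 h (median 0.06). The largest changes were in Zbtb18, up by 1.75, and Zbtb45, down with a log2 difference of -1.37. Zbtb8os, on that list by its symbol, is no BTB zinc finger gene and passed at neither time. Gata3, a GATA factor that Zbtb32 binds in T cells, was 0.60 at 12 h (adjusted p = 0.0546, or 3.29e-05 with the set block) and rose by 1.22 at 48 h. Of 14 listed genes of MHC class II and its regulators, 3 were tested. At 12 h 1 of them rose, and at 48 h 2 rose and 1 fell. Cd74, the chaperone of MHC class II molecules, rose by 0.72 and 2.39, and Rfxap fell at 48 h with a log2 difference of -0.34. Ciita and Gata6, the GATA factor that Lmcd1 represses, were detected on no array.

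For Ydjc, of 10 enzymes of chitin and amino sugar metabolism 7 rose at 12 h (median 0.37), beside 10.4% of all features, and 7 rose and 1 fell at 48 h (median 1.05), beside 26.3% and 26.4%. With the replicate block 5 rose at 12 h, beside 7.32% of features. Amdhd2, a deacetylase of N-acetylglucosamine phosphate, rose by 1.30 and 1.62, the lysosomal hexosaminidase Hexa by 0.71 and 1.52, and Gnpda2, a deaminase of glucosamine phosphate, by 0.34 and 1.37. Nagpa, which uncovers the mannose phosphate tag of lysosomal enzymes, fell by 0.64 at 48 h. Around Sapcd2, of 13 genes of spindle orientation and cell polarity 1 rose and 1 fell at 12 h, and 3 rose and 5 fell at 48 h (median -0.20), beside 26.3% and 26.4% of features. The 5 that fell were Aurka (-2.26), Plk1 (-2.22), Scrib (-0.93), Numa1 (-0.70) and Gpsm2 (-0.67). The 3 that rose were Gpsm1 (0.43), Dync1h1 (0.37) and Pard6a (0.35). Aurka and Plk1 were also on the G2 and mitosis list. Gpsm2 and Numa1 orient the spindle together, and in mouse tissue Sapcd2 competes for Gpsm2.

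Macrophage markers were present at every time. Of 15 listed, 11 were tested, and at 48 h 8 rose and 2 fell, beside 26.3% and 26.4% of all features, with Fcgr3, an immunoglobulin receptor, up by 2.47, Csf1r, the receptor for the growth factor CSF1, down with a log2 difference of -0.88, and the lineage factor Spi1 at -0.21 with no pass. The summed signal of the list was 47840 to 73200 at 0 h, 50600 to 71030 at 12 h and 69360 to 101200 at 48 h. Its part in the differences of the 6 genes was not tested. Mertk and Fcer1g were detected on no array, and Cd68 had no annotated probe here. Of the markers of other cells, 1 of 11 for T cells, 2 of 9 for B cells, 0 of 9 for fibroblasts, 1 of 8 for epithelium and 2 of 9 for muscle were detected on all arrays.

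Promoter sequences were held for 5 of the 6 genes in RefSeq of GRCm38.p6, and none for the late gene Ydjc. The 250 bases before an annotated start are shown as a description for the 4 protein-coding ones, of which Usp2 is an early gene. The window of Mir17hg lies inside the microRNA cluster and is not printed. Capitals mark GC boxes (GGGCGG) in Usp2 at chr9:44084670-44084919 on the plus strand and in Sapcd2 at chr2:25371785-25372034 on the plus strand, a TGACGTCA element and CCAAT boxes in Lmcd1 at chr6:112273508-112273757 on the plus strand, and CCAAT boxes in Zbtb32 at chr7:30598910-30599159 on the minus strand.
Usp2: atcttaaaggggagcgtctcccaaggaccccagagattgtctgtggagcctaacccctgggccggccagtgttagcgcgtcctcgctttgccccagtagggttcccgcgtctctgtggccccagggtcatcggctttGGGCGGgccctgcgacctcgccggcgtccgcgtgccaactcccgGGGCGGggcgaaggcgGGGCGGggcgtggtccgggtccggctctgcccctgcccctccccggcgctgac
Sapcd2: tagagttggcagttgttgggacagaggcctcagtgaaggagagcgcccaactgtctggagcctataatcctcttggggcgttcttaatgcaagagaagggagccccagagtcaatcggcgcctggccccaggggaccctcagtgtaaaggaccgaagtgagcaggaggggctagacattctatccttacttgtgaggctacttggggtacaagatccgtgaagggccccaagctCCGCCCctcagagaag
Lmcd1: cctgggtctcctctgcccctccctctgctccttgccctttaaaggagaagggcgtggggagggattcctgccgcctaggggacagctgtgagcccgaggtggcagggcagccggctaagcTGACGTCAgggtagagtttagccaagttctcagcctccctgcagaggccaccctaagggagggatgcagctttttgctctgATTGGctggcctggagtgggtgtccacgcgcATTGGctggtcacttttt
Zbtb32: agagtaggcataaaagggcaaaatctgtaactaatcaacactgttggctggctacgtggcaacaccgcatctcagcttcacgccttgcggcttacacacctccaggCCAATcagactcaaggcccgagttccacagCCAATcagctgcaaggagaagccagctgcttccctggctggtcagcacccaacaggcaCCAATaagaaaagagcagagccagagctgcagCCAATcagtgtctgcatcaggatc
Motifs were read on both strands and chosen after the sequences were seen. Zbtb32 had 4 CCAAT boxes, as many or more than in 0.84% of 32851 promoter windows of that length, but the window of its other annotated start, chr7:30592943-30593192, had none. Lmcd1 had the TGACGTCA element, present in 1.55% of windows, and 2 CCAAT boxes, as 10.1% have at least. Usp2 had 3 GC boxes, as 8.47% have at least, and Sapcd2 had 1, present in 32.7%. The letters CACGTG (6.02% of windows), TTTNNCGC (4.28%) and TTTGAA (16% of windows), which E-box, E2F and cell cycle homology factors can bind, were in none of the windows of the 5 genes. A match is only a description of the letters, and no factor was measured.

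**Figure D5:**
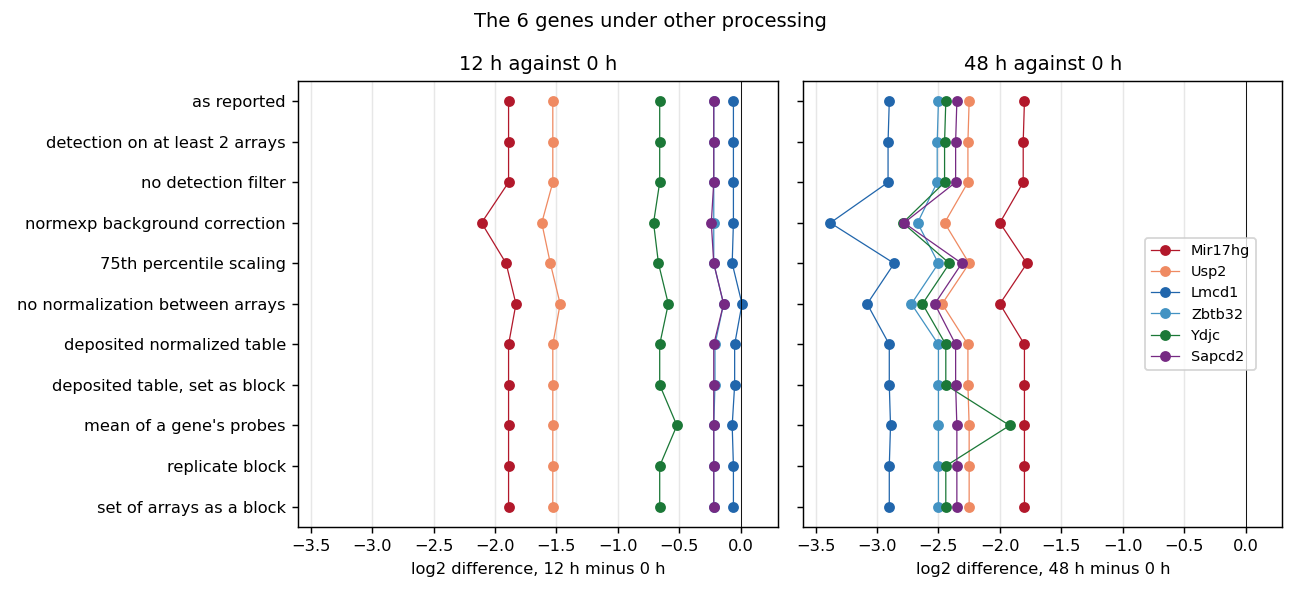
Log2 difference from 0 h at 12 h (left) and 48 h (right) of the 6 genes (coloured lines) under each processing setting (rows), with the reported setting in the uppermost row. The lines run nearly straight except at normexp correction, where Lmcd1 reaches -3.38 at 48 h, without normalization, and for Ydjc at the mean of its probes, where it is -1.92.

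A gene was counted as early where at least 50% of its 48 h difference was present at 12 h. The 2 early and 4 late genes were the same under every setting tried, including each array left out in turn. However, the genes were chosen on these same differences, and every setting reuses the same arrays or some of them. Block settings could not change the split, since blocks leave a difference of means as it is here. An unchanged split is therefore no independent test of the early and late courses. The lowest share of the 48 h difference present at 12 h was 91.4% for Mir17hg and 59.6% for Usp2, and the highest for a late gene was 28.7%, for Ydjc.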

How the data were processed

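RNA from RAW 264.7 cells, taken before and after 12 h and 48 h with MFP, was hybridized to 6 Illumina arrays, 2 per time point. The authors deposited signal intensity per probe, without background subtraction or normalization between arrays, and beside it a detection p-value per probe. The log2 values that the authors deposited in a second table had been quantile normalized in 2 separate sets of 3 arrays, as the values show. The submitters' processing notes name R 3.0.2.

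Only probes detected at a p under 0.05 on each of the 6 arrays entered, and they were log2 transformed, quantile normalized together and fitted with 1 mean per time point by limma 3.58.1 in R 4.3.3, with Benjamini-Hochberg adjustment over 9984 features and 3 residual degrees of freedom. Of the probes, 34885 had 1 symbol in the platform annotation, 18 several and 10378 none here. The number of arrays limits the precision. The members and gene lists were chosen with earlier results of these data known. Named were the 6 genes, the 3 genes nearest to each over the arrays, up to 4 passing genes of a list with the largest 48 h changes, known partners and annotated neighbours. In some lists further genes were named beyond this rule. The members were left out of the lists. The fit was tested on simulated data. Alternatives were other detection filters, background corrections, scalings, probe summaries, the deposited table, blocks and each array left out.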

Additional observations from a re-analysis of the deposited data

How the results depend on the processing

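Under other settings 16 of 120 values of the 6 genes moved further than the spread between arrays. Blocks leave a difference of means as it is in this balanced design, so the values of the block settings could not move by the block. The sign turned for Lmcd1 at 12 h, whose difference was within its SE, to 0.01 without normalization. Leaving out each array in turn moved 8 of 72 values further than the spread between arrays. Some of the 72 could not move, since a 12 h difference uses no 48 h array and a 48 h difference no 12 h array. The ranges at 48 h ran from -1.94 to -1.67 for Mir17hg, from -3.00 to -2.79 for Lmcd1 and from -2.57 to -2.31 for Ydjc. At 12 h Lmcd1 lay between -0.16 and 0.05. With normexp correction the 12 h differences were -2.11 for Mir17hg and -1.62 for Usp2, and those at 48 h were -2.0 for Mir17hg, -2.45 for Usp2, -3.38 for Lmcd1, -2.67 for Zbtb32, -2.79 for Ydjc and -2.78 for Sapcd2. Without normalization those at 48 h were -2.0, -2.47, -3.08, -2.72, -2.63 and -2.53 in the same order, where the median of all features moved to -0.18. The mean of its probes gave Ydjc -0.52 and -1.92, since its dimmer probe then counts equally. The cause of the other shifts was not tested.

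Over all features, 17 were lower and 117 higher by at least 2-fold at an adjusted p under 0.05 at 12 h, 506 and 534 at 48 h, and 325 and 240 between 12 h and 48 h. With normexp the 12 h counts were 36 and 199, those at 48 h 766 and 760, and those between them 489 and 389. Without normalization limma called 0 lower and 5 higher at 12 h (15 and 136 at an unadjusted p under 0.05 and 2-fold), 506 lower and 232 higher at 48 h, and 286 lower and 53 higher between them. On the deposited table limma called 0 and 0 at 12 h (17 and 116 unadjusted), 305 and 310 at 48 h, and 115 and 80 between them, and with its 2 sets as a block, chosen after seeing the data, 17 and 116, 510 and 530, and 329 and 236. At the adjusted p alone the counts were 884 and 1037, 2632 and 2627, and 2018 and 1990. The replicate numbers did not pair the arrays, with correlations of deviations of -0.57, -0.58 and 0.63 between time points. These signs followed the 2 sets, in which replicate 1 of 0 h stood with replicate 2 of 12 h and of 48 h. The reported fit left the sets out. With the replicate block the counts were 17 and 117, 506 and 534, and 325 and 240. With that block 11 DNA replication genes and 2 G2 and mitosis genes fell at 12 h. The 48 h signals of Lmcd1, Sapcd2 and Ydjc were under 4 times the median undetected signal, which limits how far their differences can be read.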

Other observations

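The nearest genes on either side of the 6 in the GRCm38.p6 annotation were mostly not detected on all arrays. Of the 12 neighbours, 3 could be tested by limma. Kmt2b, a histone methyltransferase beside Zbtb32, had log2 differences of -0.05 at 12 h (adjusted p = 0.821) and 0.04 at 48 h (adjusted p = 0.801). Ube2l3, a ubiquitin-conjugating enzyme beside Ydjc, rose by 0.85 at 48 h (SE 0.111, adjusted p = 0.000358). Uap1l1, beside Sapcd2, rose at both times, with log2 differences of 0.64 (adjusted p = 0.00242) and 0.66 (adjusted p = 0.000324). Ccdc116, which overlaps Ydjc in the annotation, was not detected on all arrays, nor were Slitrk5 and Gpc5 beside Mir17hg, Thy1 and C1qtnf5 beside Usp2, Grm7 and Ssu2 beside Lmcd1, Upk1a beside Zbtb32 or Entpd2 beside Sapcd2. The 48 h difference of the gene beside each was -2.50 for Zbtb32, -2.44 for Ydjc and -2.35 for Sapcd2.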
